A study of Mus musculus with 9 samples.

Results

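Salt reabsorption in the thick ascending limb and the distal convoluted tubule was examined in aging mouse kidneys through 9 genes: the transporters Slc12a1, Slc12a3 and Slc9a3, the potassium channels Kcnj1 and Kcnj10, the chloride channel subunit Bsnd, the kinases Wnk4 and Stk39, and uromodulin (Umod). They were taken by symbol from 19938 genes, with 1 probe set for each gene, namely the brightest over all 9 arrays of those annotated with exactly 1 gene symbol. All 9 genes were found, and each had 1 such probe set. Whole kidneys of female wild-type mice on a mixed FVB/C57BL6 background were compared, 5 mice at 96 weeks of age and 4 mice at 14 weeks, with 1 Affymetrix Mouse Gene ST array for each mouse. The mice had been perfused and the kidneys snap frozen. The methods name 5 mice per age, and the 9 arrays that carry an age label were used. The values are log2 expression values, on which a difference of 1 is a doubling. Whole kidney RNA holds every segment and the interstitium, so that fewer cells of a type and less RNA per cell cannot be told apart.

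The thick ascending limb reabsorbs salt without water, and its apical cotransporter of sodium, potassium and chloride, NKCC2 (Slc12a1), is the target of loop diuretics. Potassium that enters through NKCC2 returns to the lumen through ROMK (Kcnj1), while chloride leaves the cell through basolateral chloride channels, which need the subunit barttin (Bsnd). In the distal convoluted tubule the cotransporter of sodium and chloride, NCC (Slc12a3), is the target of thiazides. It is switched on by the kinase SPAK (Stk39), which is itself activated by WNK kinases such as Wnk4, and the basolateral potassium channel Kir4.1 (Kcnj10) sets the chloride level that the WNK kinases sense. NHE3 (Slc9a3) exchanges sodium for protons in the proximal tubule and the thick limb. Uromodulin is the main protein of normal urine and is made by the thick limb.

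The 250 bases before the annotated start of 4 of these genes are shown, because Kcnj1 and Slc9a3 are the 2 genes whose age groups did not overlap, Kcnj10 had the next lowest p-value, and Umod had the same mean at both ages. Sequences are RefSeq's on GRCm38.p6, read 5′ to 3′ on the strand of the gene, and an entry was found for 8 of the 9 genes (none for Bsnd). Capitals mark matches on either strand to AGAACA, the core site of steroid receptors such as the glucocorticoid and mineralocorticoid receptors.
Kcnj1: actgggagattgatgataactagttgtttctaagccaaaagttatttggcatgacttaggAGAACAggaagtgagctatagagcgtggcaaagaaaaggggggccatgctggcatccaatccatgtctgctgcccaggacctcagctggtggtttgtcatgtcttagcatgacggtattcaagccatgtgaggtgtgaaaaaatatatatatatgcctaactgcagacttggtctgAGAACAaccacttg
Slc9a3: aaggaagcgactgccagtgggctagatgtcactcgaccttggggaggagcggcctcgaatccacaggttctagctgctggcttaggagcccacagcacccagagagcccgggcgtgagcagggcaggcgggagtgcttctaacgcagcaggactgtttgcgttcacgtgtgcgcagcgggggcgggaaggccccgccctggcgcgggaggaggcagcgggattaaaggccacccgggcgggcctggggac
Kcnj10: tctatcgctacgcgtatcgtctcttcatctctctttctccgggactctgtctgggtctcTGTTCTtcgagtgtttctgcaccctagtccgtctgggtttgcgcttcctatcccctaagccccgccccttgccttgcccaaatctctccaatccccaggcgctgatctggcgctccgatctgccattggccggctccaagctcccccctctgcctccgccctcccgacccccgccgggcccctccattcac
Umod: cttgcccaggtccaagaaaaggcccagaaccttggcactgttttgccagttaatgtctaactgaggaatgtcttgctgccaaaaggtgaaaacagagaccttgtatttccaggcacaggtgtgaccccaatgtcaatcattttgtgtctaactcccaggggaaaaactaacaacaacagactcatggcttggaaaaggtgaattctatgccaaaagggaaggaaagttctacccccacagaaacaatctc
The Kcnj1 window lies at chr9:32393735-32393984 on the plus strand, before a start that is 21567 bases inside the annotated span of the gene. The Slc9a3 window lies at chr13:74121163-74121412 on the plus strand, before a start that is 35158 bases inside its span. The Kcnj10 window is chr1:172340960-172341209 on the plus strand and the Umod window is chr7:119479263-119479512 on the minus strand. Both end just before the first annotated base of the gene.
The letters AGAACA occurred in 16.1% of 32851 windows of this length over all genes, and in the windows of Kcnj1 and Kcnj10 among the 8. Kcnj1 held them 9 to 14 and 185 to 190 bases before the start, and Kcnj10 held them 186 to 191 bases before the start on the other strand. AAGGTCA, the site of estrogen-related receptors, occurred in 4.08% of windows and in none of the 8. The GC content was 44.8% for Kcnj1, 67.6% for Slc9a3, 62.0% for Kcnj10 and 45.2% for Umod, against a median of 52.4% over all windows. The motifs were chosen after expression values were seen, and a match is a run of letters, not a site in use.

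None of the 9 genes passed an adjusted p under 0.05 in limma, where 1339 of 19938 genes (6.72%) passed, 4.31% higher and 2.4% lower at 96 weeks. At an unadjusted p under 0.05 there were 3 (Slc9a3, Kcnj1 and Kcnj10), all with lower means at 96 weeks, while 28.5% of all genes were under that limit and 15.3% were lower. By the methods' t-test on the same values 0 passed after adjustment and 2 were at an unadjusted p under 0.05. The methods used that test without adjustment and with a 1.5-fold limit, and the adjustment was added here. In limma none of the 9 genes passed a 1.5-fold change with an unadjusted p under 0.05, as 1.6% of all genes did. In 2 genes, Slc9a3 and Kcnj1, every 96 week old kidney was below every 14 week old kidney, which held for 5.79% of all genes. No member was separated in the other direction, as 7.49% of all genes were. The median log2 fold change of the 9 genes was −0.09, beside −0.03 for all genes, with 6 below 0 and 3 above. The number of genes that passed was 528 to 1135 when any 1 array was left out.

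The arrays at 96 weeks were not alike. Replicates 3 and 4 held the highest levels of macrophage markers and of markers of injured tubules among all 9 arrays. The list of 7 macrophage markers, centred on each gene's mean and averaged, stood at 0.23, −0.07, 0.88, 1.04 and 0.06 in replicates 1 to 5 at 96 weeks, against −0.62 to −0.47 at 14 weeks. The 5 measured injury markers stood at −0.03, −0.08, 1.75, 0.44 and −0.06 at 96 weeks, against −0.54 to −0.44 at 14 weeks. The results that move most without these 2 kidneys are also given without them. Where a gene or pair passed on leaving arrays out but not with all 9, that p-value follows from the choice of arrays.

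**Figure D1:**
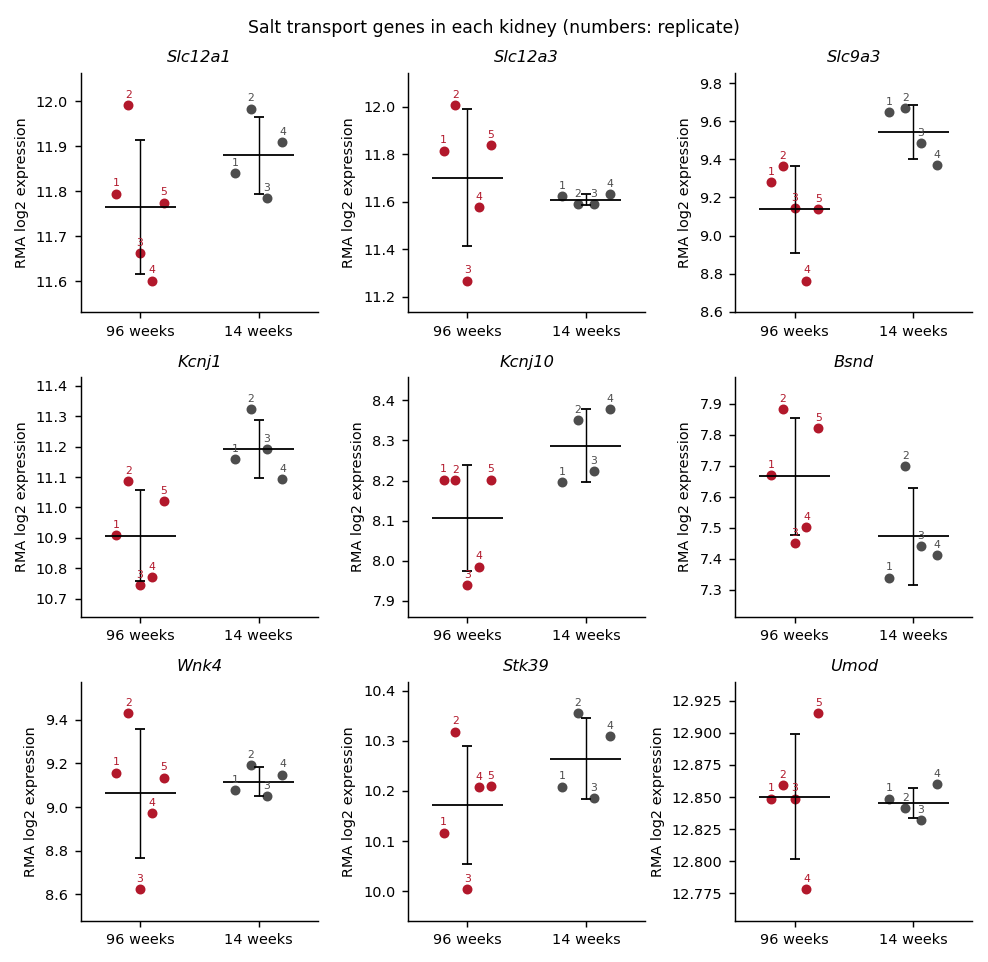
Log2 expression of the 9 salt transport genes in each kidney, with 96 weeks (5 mice) left of 14 weeks (4 mice) and a separate vertical scale for each gene. Points are mice with their replicate numbers, horizontal lines are means and bars are SDs. Slc9a3 and Kcnj1 are the 2 genes in which the age groups do not overlap, and the 96 week old kidneys spread more widely than the 14 week old ones in all 9 panels.

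Among the sodium transporters Slc9a3 (NHE3) had the largest difference between the ages. Its log2 values were 9.28, 9.36, 9.14, 8.76 and 9.14 in replicates 1 to 5 at 96 weeks, against 9.65, 9.67, 9.49 and 9.37 in replicates 1 to 4 at 14 weeks. All 96 week old kidneys lay below all 14 week old ones, although the highest old kidney (replicate 2) and the lowest young kidney (replicate 4) were less than 0.01 apart. The means were 9.14 ± 0.23 at 96 weeks and 9.54 ± 0.14 at 14 weeks (SD, n = 5 and 4). The log2 fold change was −0.41 (standard error 0.12, 95% interval −0.66 to −0.15), with an adjusted p of 0.063 in limma. The exact two-sided permutation test gave an unadjusted p of 0.016, where the smallest possible is 0.0079. Without replicates 3 and 4 at 96 weeks the log2 fold change was −0.28 (adjusted p = 0.10 in limma), and over all alternative settings the adjusted p ran from 0.034 to 0.14. In 4 of these settings (array weights, a filter on dim genes, and 2 rescalings between arrays) it passed 0.05.

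Slc12a1 (NKCC2) differed little. It measured 11.80, 11.99, 11.66, 11.60 and 11.77 at 96 weeks, against 11.84, 11.98, 11.79 and 11.91 at 14 weeks. Replicates 3, 4 and 5 at 96 weeks lay below every 14 week old kidney and replicate 2 lay above them all. The log2 fold change was −0.11 (standard error 0.080, 95% interval −0.29 to 0.06, adjusted p = 0.35 in limma), with means of 11.77 ± 0.15 and 11.88 ± 0.086 (SD, n = 5 at 96 weeks and 4 at 14 weeks). Without old replicates 3 and 4 it was −0.03.

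Slc12a3 (NCC) stood out for its spread rather than for its mean. The 96 week old kidneys measured 11.82, 12.01, 11.27, 11.58 and 11.84, against 11.63, 11.59, 11.59 and 11.63 at 14 weeks. Old replicates 1, 2 and 5 lay above every young kidney and old replicates 3 and 4 lay below every one. The SD was 0.29 at 96 weeks and 0.023 at 14 weeks. The means were 11.70 and 11.61, and the log2 fold change was 0.09 (standard error 0.13, 95% interval −0.19 to 0.37, adjusted p = 0.64 in limma). Without replicates 3 and 4 at 96 weeks the log2 fold change was 0.28 with an adjusted p of 0.042 in limma, the one alternative of 20 under which it passed (range over the alternatives 0.042 to 0.94). That fit leaves out the 2 old kidneys below the young range and keeps the 3 above it. Its p-value follows from this choice of arrays and is no test of a rise. The 2 kidneys with the lowest NCC values were those with the highest macrophage and injury marker levels, and the part of these cells in the NCC values was not tested.

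The potassium channels were both lower on average at 96 weeks. Kcnj1 (ROMK) measured 10.91, 11.09, 10.75, 10.77 and 11.02 at 96 weeks, against 11.16, 11.32, 11.19 and 11.09 at 14 weeks. The groups did not overlap, again by less than 0.01 between old replicate 2 and young replicate 4. The means were 10.91 ± 0.15 at 96 weeks and 11.19 ± 0.097 at 14 weeks (SD, n = 5 and 4), with a log2 fold change of −0.29 (standard error 0.082, 95% interval −0.47 to −0.10). The adjusted p was 0.063 in limma, and the exact two-sided permutation p, unadjusted, was 0.016. It passed 0.05 under 3 of 20 alternatives, namely the filter on dim genes and both rescalings (range of the adjusted p 0.024 to 0.15). Without replicates 3 and 4 at 96 weeks the log2 fold change was −0.19 (adjusted p = 0.15 in limma).

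Kcnj10 (Kir4.1) had its 96 week old kidneys in 2 sets. Replicates 1, 2 and 5 each measured 8.20 and replicates 3 and 4 measured 7.94 and 7.99, against 8.20, 8.35, 8.22 and 8.38 at 14 weeks. The log2 fold change was −0.18 (standard error 0.075, 95% interval −0.35 to −0.01), with an adjusted p of 0.15 in limma and an unadjusted p of 0.079 in the exact permutation test. It was −0.08 without replicates 3 and 4. Bsnd (barttin), in contrast, measured 7.67, 7.88, 7.45, 7.50 and 7.82 at 96 weeks, against 7.34, 7.70, 7.44 and 7.41 at 14 weeks. Old replicates 2 and 5 lay above every young kidney and the others among them. The log2 fold change of Bsnd was 0.19 (standard error 0.11, 95% interval −0.04 to 0.43, adjusted p = 0.24 in limma), and 0.32 without replicates 3 and 4 (adjusted p = 0.085 in limma, range over the alternatives 0.085 to 0.52).

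**Figure D2:**
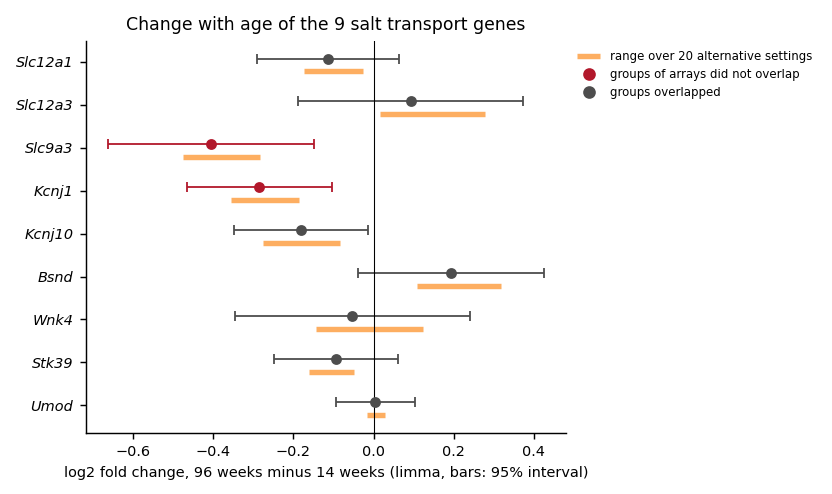
Log2 fold change of each gene, 96 weeks minus 14 weeks, from limma, with points for the estimate, thin bars for the 95% interval and orange bars for the range over 20 alternative settings. Red marks the 2 genes whose arrays did not overlap between the ages; the intervals of Slc9a3, Kcnj1 and Kcnj10 lie below 0, and the alternatives of Wnk4 and Umod cross 0.

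The kinases that act on the cotransporters had small differences. Wnk4 measured 9.16, 9.43, 8.62, 8.97 and 9.13 at 96 weeks, against 9.08, 9.19, 9.05 and 9.15 at 14 weeks. Old replicate 3 was the lowest kidney and old replicate 2 the highest, and the SD was 0.30 at 96 weeks and 0.066 at 14 weeks. The log2 fold change was −0.05 (standard error 0.13, 95% interval −0.35 to 0.24, adjusted p = 0.81 in limma), and its sign turned to 0.06 without old replicate 3. Stk39 (SPAK) measured 10.12, 10.32, 10.004, 10.21 and 10.21 at 96 weeks, against 10.21, 10.36, 10.19 and 10.31 at 14 weeks. Old replicates 1 and 3 lay below every young kidney. Its log2 fold change was −0.09 (standard error 0.069, 95% interval −0.25 to 0.06, adjusted p = 0.38 in limma), and −0.05 without old replicates 3 and 4.

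Umod was the most even of the 9 genes. It measured 12.85, 12.86, 12.85, 12.78 and 12.92 at 96 weeks, against 12.85, 12.84, 12.83 and 12.86 at 14 weeks. The mean was 12.85 at both ages, and the log2 fold change was 0.00 (standard error 0.044, 95% interval −0.09 to 0.10, adjusted p = 0.95 in limma), so that differences beyond about 0.10 on the log2 scale lay outside the interval. Its values approached the top of the scale, as the highest log2 value of any gene on any array was 13.40, and how far the array still resolves differences at this brightness was not tested.

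The spread among old kidneys followed a shared order of the arrays. The SD was higher at 96 weeks than at 14 weeks in all 9 genes, compared with 58.9% of all genes, whose median SD was 0.11 at 96 weeks and 0.095 at 14 weeks. Among the 5 old arrays replicate 3 was the lowest in 6 members and replicate 4 in the other 3, while these arrays were the lowest in 19.3% and 25.3% of all genes. Replicate 2 was the highest in 7 members, with 25.5% of all genes, replicate 5 was the highest in Umod, and replicates 1 and 5 tied for the highest in Kcnj10. Bulk values of genes from the same tubule cells are not independent of each other, so the 9 genes are no 9 observations of this order.

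Markers of the tubule segments were examined in lists that leave out the 9 genes. Over all genes 6.72% passed an adjusted p under 0.05 in limma, and 28.5% had an unadjusted p under 0.05. The distal convoluted tubule list (7 genes, with Pvalb, Calb1 and Trpm6) stood at 0.04, 0.16, −0.64, −0.31 and 0.08 in old replicates 1 to 5, against 0.10 to 0.27 at 14 weeks. Of its genes 1 fell (Slc8a1) and none rose at an adjusted p under 0.05 in limma. Its median log2 fold change was −0.30, and −0.03 without replicates 3 and 4. The thick ascending limb list (8 of 9 measured, with Egf, Cldn10 and Cldn16) stood at 0.08, 0.17, −0.14, −0.08 and 0.07 in old replicates 1 to 5, against −0.09 to 0.06 at 14 weeks. Only Cldn19 passed, higher at 96 weeks. The proximal tubule list (11 genes, with Slc34a1 and Lrp2) stood at 0.03, 0.15, −0.07, −0.16 and 0.01 in old replicates 1 to 5, against −0.01 to 0.04 at 14 weeks, with no gene past the threshold and 1 at an unadjusted p under 0.05 in limma. In these 3 lists old replicates 3 and 4 were the lowest of the old kidneys. The intercalated cell list stood at 0.06, 0.09, −0.26, −0.15 and −0.14 in old replicates 1 to 5, against 0.08 to 0.13 at 14 weeks. The principal cell list, at −0.01, 0.13, 0.01, −0.09 and 0.03 in old replicates 1 to 5, had replicate 4 lowest and replicate 3 in the middle. Outside the tubule the podocyte list also had replicates 3 and 4 lowest, at −0.03, 0.21, −0.10, −0.10 and 0.07 in old replicates 1 to 5. Among the old kidneys the endothelium list was lowest in replicate 1, and the fibroblast list was highest in replicate 3. Atp6v0d2, a subunit of the proton pump of intercalated cells, fell by 0.28 on the log2 scale (adjusted p = 0.029 in limma). It passed in 3 of 9 fits that left out 1 array (without old replicates 1, 2 or 3), and not without old replicates 3 and 4 together (−0.25, adjusted p = 0.081). The median of the intercalated list was −0.19, and −0.07 without these 2 kidneys. Which cells set the order of the old arrays was not tested.

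Some markers of other cells differed between the ages. Of 7 macrophage genes 3 rose and none fell, among them Lyz2, the gene of lysozyme, by 2.54 (adjusted p = 0.0054 in limma), Csf1r by 0.45 (adjusted p = 0.015) and Tyrobp by 1.17 (adjusted p = 0.040). Lyz2 and Csf1r passed in all 9 fits that left out 1 array, and Tyrobp passed in 2, without old replicate 1 or 2, and without old replicates 3 and 4 together (0.70, adjusted p = 0.024). None of the 6 measured T and B cell genes passed, and their list ranged from −0.45 to 1.49 at 96 weeks, against −0.42 to −0.32 at 14 weeks. Of 5 injury markers none passed and 4 had an unadjusted p under 0.05 in limma, all higher at 96 weeks. Among 5 measured podocyte genes Wt1 fell by 0.37 (adjusted p = 0.024 in limma), and it did not pass without young replicate 1 (−0.35), 2 (−0.34) or 3 (−0.36). The other 4 podocyte genes had log2 fold changes above 0 and did not pass, and the list median was 0.06. No gene of the principal cell, endothelium, fibroblast and adipocyte lists passed, with 2, 0, 1 and 1 at an unadjusted p under 0.05 in limma. Over all genes 28.5% were under that limit. The part of these cells in the values of the salt transport genes was not tested.

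**Figure D3:**
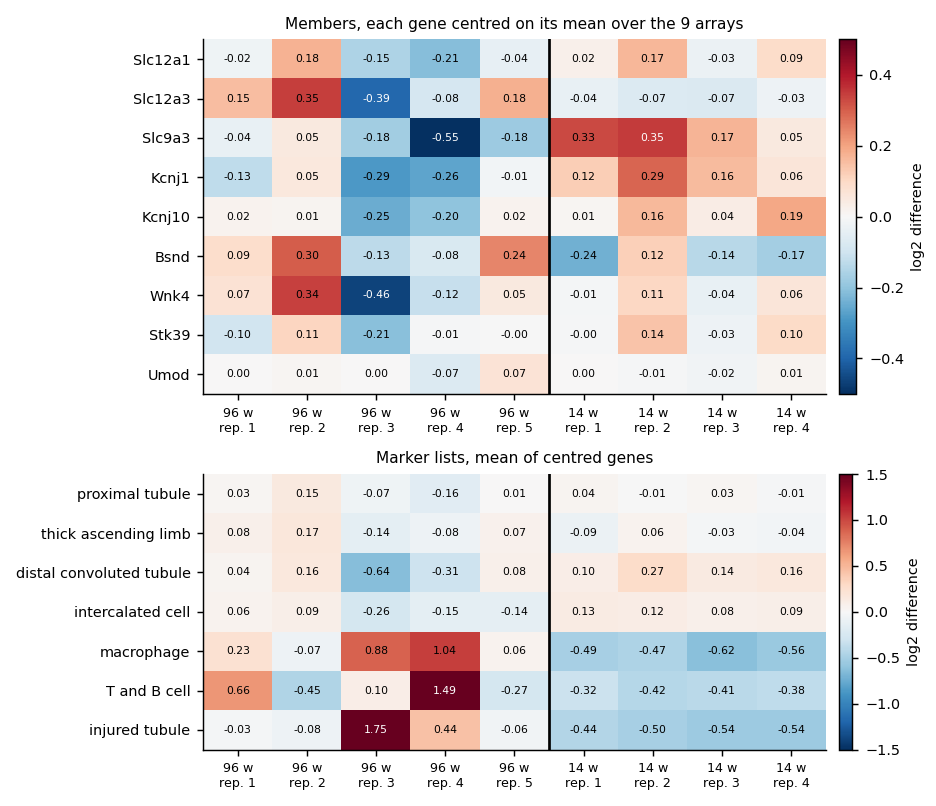
Log2 values of the 9 genes (top, each gene minus its mean over 9 arrays) and the mean of centred marker genes of 7 cell types (bottom), in each array at 96 weeks (left of the line) and 14 weeks (right). In old replicates 3 and 4 most salt transport genes and the distal convoluted tubule markers are low (blue), while macrophage and injured tubule markers are high (red).

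Differences between a pair of members within each array do not depend on a constant scaling of that array, and 4 pairs were compared. Their absolute size reflects the probes as well as the RNA, so only the change between the ages is of interest. Slc9a3 minus Slc12a1 was −2.52, −2.63, −2.52, −2.84 and −2.64 at 96 weeks, against −2.19, −2.31, −2.30 and −2.54 at 14 weeks, with a difference of −0.29 between the ages. The exact two-sided permutation p was 0.032, and 0.13 after Benjamini-Hochberg adjustment over the 4 pairs. Without young replicate 4 the difference was −0.36 with an adjusted p of 0.036 in the same exact test (range over the alternatives 0.032 to 0.29). Young replicate 4 was the only young kidney within the range of the old ones. The p-value without it follows from this choice of arrays.

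Slc12a3 minus Slc12a1 was 0.02, 0.02, −0.39, −0.02 and 0.07 at 96 weeks, against −0.22, −0.39, −0.20 and −0.27 at 14 weeks. In 4 of 5 old kidneys the value was above that of every young kidney, and old replicate 3 was level with the lowest young kidney. The difference was 0.21 (exact permutation p = 0.10, adjusted p = 0.15). Umod minus Slc12a1 differed by 0.12 (means 1.08 ± 0.13 at 96 weeks and 0.97 ± 0.082 at 14 weeks, SD, exact permutation p = 0.15, adjusted p = 0.15). Kcnj10 minus Kcnj1 differed by 0.10 (means −2.80 ± 0.065 at 96 weeks and −2.91 ± 0.13 at 14 weeks, SD, exact permutation p = 0.15, adjusted p = 0.15). Young replicate 4, at −2.72, decided this last value, since without it the difference was 0.17 with an adjusted p of 0.036 in the exact permutation test (range over the alternatives 0.036 to 0.42). Here too it was the only young kidney within the old range, so the p-value without it follows from the choice of arrays. The groups overlapped in all 4 pairs.

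**Figure D4:**
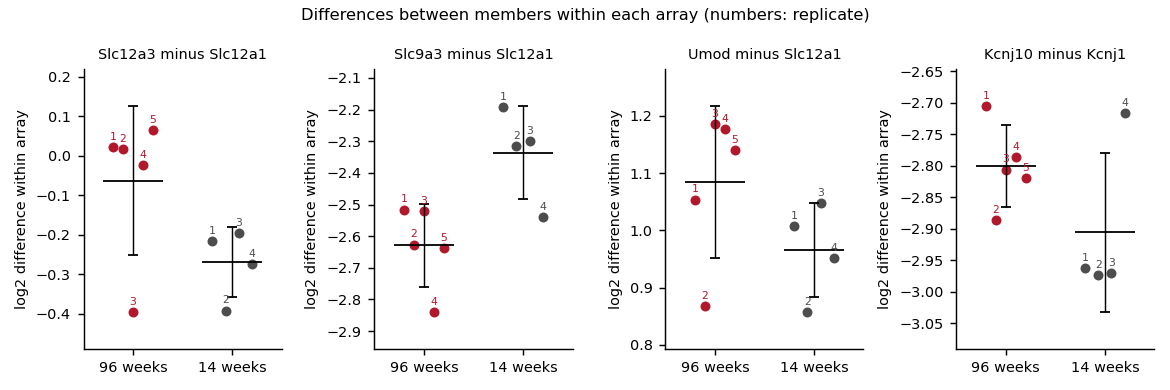
Difference of log2 values between a pair of genes within each array, at 96 weeks (left) and 14 weeks (right), with replicate numbers, means (lines) and SDs (bars). Slc12a3 minus Slc12a1 is above the young range in 4 of 5 old kidneys and at −0.39 in replicate 3, and the groups overlap in all 4 panels.

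Genes that work with these 9 were examined in 6 lists, of which 76 of 86 distinct genes were measured. Of the 76, 4 rose and 4 fell (10.5% passed, against 6.72% of all genes). The count was 4, 4, 6, 6 and 3 without old replicates 1 to 5, and 4, 5, 5 and 1 without young replicates 1 to 4. Without old replicates 3 and 4 together it was 6, with 5 higher and 1 lower, and 3 of these (Agt, Hpn and Ppargc1a) were among the 8. By the methods' t-test none of the 8 passed after adjustment, and 1 other gene, Cul3, did.

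Among the partners of the thick limb 1 of 16 measured genes rose and none fell at an adjusted p under 0.05 in limma. At an unadjusted p under 0.05 there were 8, with 3 higher and 5 lower, where 28.5% of all genes were under that limit. The list median was −0.01, and it turned to 0.07 without old replicates 3 and 4. Egf, Cldn10, Cldn16, Cldn19, Ptger3 and Casr are also in the thick limb marker list, so the lists are not separate observations. Cldn19, which forms the paracellular path for magnesium and calcium with Cldn16, rose by 0.31 (standard error 0.079, adjusted p = 0.044 in limma). Its groups did not overlap, with 8.35 to 8.66 at 96 weeks against 8.03 to 8.34 at 14 weeks, but it passed in only 2 of 9 fits that left out 1 array (without old replicate 4 and without young replicate 2), and over the 9 fits its log2 fold change stayed between 0.26 and 0.37. Without old replicates 3 and 4 it was 0.37 (adjusted p = 0.053 in limma). Cldn19 did not pass in limma after repeated quantile normalization (0.22, adjusted p = 0.12) or cyclic loess (0.25, adjusted p = 0.091). Fxyd2, a small regulatory membrane protein of the tubule, showed a log2 fold change of 0.27 (adjusted p = 0.055 in limma), and passed without young replicate 2 (0.32, adjusted p = 0.0496, range over the alternatives 0.041 to 0.12). Slc12a2 (NKCC1), the widely expressed relative of NKCC2, had one of −0.18 (adjusted p = 0.11 in limma), and Kcnma1, the pore of the BK potassium channel, one of −0.30 (adjusted p = 0.12 in limma).

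The partners in the distal convoluted tubule had the lowest median of the 6 lists, −0.25, beside −0.03 for all genes. Of 15 measured genes 12 were below 0. At an adjusted p under 0.05 in limma 1 fell and none rose, where 6.72% of all genes passed. At an unadjusted p under 0.05 in limma 6 were lower and 1 higher. Over all genes 28.5% were under that limit and 15.3% were lower. Slc8a1, the sodium calcium exchanger through which calcium leaves the cell, measured 8.78, 8.74, 8.17, 8.27 and 8.65 at 96 weeks, against 8.82, 9.65, 9.08 and 9.40 at 14 weeks. It fell by 0.71 (standard error 0.18, adjusted p = 0.044 in limma), and of 9 fits that left out 1 array it passed in 1, without young replicate 1, with log2 fold changes between −0.85 and −0.58 in all. It did not pass with array weights or with the mean over probe sets. Of 20 alternatives it passed under 7 (log2 fold change −0.85 to −0.49, adjusted p 0.029 to 0.12). Kcnj16 (Kir5.1), which forms a channel with Kir4.1, showed a log2 fold change of −0.25 (adjusted p = 0.086 in limma), and Trpv5, the entry channel for calcium, one of −0.30 (adjusted p = 0.097 in limma), which passed without old replicate 3 (−0.37, adjusted p = 0.043, range over the alternatives 0.043 to 0.18). Tmem52b, a marker of this segment, had one of −0.30 (adjusted p = 0.10 in limma), and −0.16 without old replicates 3 and 4. Without old replicates 3 and 4 the list median was −0.08, with 10 of 15 genes below 0, and Slc8a1 showed a log2 fold change of −0.51 (adjusted p = 0.12 in limma). Slc8a1, Calb1, Trpm6, Pvalb and Tmem52b are also in the marker list of this segment, so the lists are not separate observations.

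Of 17 kinases, scaffolds and phosphatases around WNK and SPAK 1 rose and none fell, and the median was 0.00. Ppp1ca, a catalytic subunit of protein phosphatase 1, rose by 0.31 (adjusted p = 0.024 in limma). It measured 10.48 to 10.70 at 96 weeks, against 10.17 to 10.42 at 14 weeks, and did not pass without young replicate 2 (0.30, adjusted p = 0.057) or young replicate 4 (0.26, adjusted p = 0.063), nor without old replicates 3 and 4 together (0.29, adjusted p = 0.068). Oxsr1, the close relative of SPAK, showed a log2 fold change of 0.16 (adjusted p = 0.11 in limma). Cab39, a scaffold that raises the activity of both kinases, had one of 0.13, and Cul3, the ubiquitin ligase scaffold that removes WNK kinases, one of −0.09 (adjusted p = 0.19 in limma for both). Cul3 passed by the methods' t-test (adjusted p = 0.048).

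None of 11 measured partners of NHE3 passed, and 3 had an unadjusted p under 0.05 in limma, where 28.5% of all genes were under that limit. The median was 0.13, with 7 of 11 above 0, where NHE3 itself showed a log2 fold change of −0.41. Ezr (ezrin), which ties NHE3 to the cytoskeleton, measured 10.38 to 10.62 at 96 weeks, against 10.18 to 10.29 at 14 weeks (log2 fold change 0.22, adjusted p = 0.054 in limma). It passed under 3 of 20 alternatives (range of the adjusted p 0.039 to 0.13). The scaffold Slc9a3r1 (NHERF1) showed a log2 fold change of 0.26 (adjusted p = 0.12 in limma, range over the alternatives 0.026 to 0.25). It passed without old replicate 3 (0.34, adjusted p = 0.026) and without old replicates 3 and 4 (0.34, adjusted p = 0.045). Dpp4, a brush border peptidase that binds NHE3, had a value of 0.18 (adjusted p = 0.21 in limma). Slc9a4 (NHE4), the basolateral exchanger of the thick limb, had one of −0.43 (adjusted p = 0.052 in limma). It passed under 6 of 20 alternatives, among them without young replicate 3 (−0.53, adjusted p = 0.030, range over the alternatives 0.030 to 0.14).

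The list for uromodulin processing and control had the most genes that passed, 1 higher and 3 lower of 14 measured. It held uromodulin's protease Hpn, the coactivator Ppargc1a, Umodl1 and transcription factors, not all of them particular to the thick limb and distal tubule. Of the transcription factors only Esrrg and Klf9 passed. Irx1, Irx2, Irx3, Pou3f3, Tfap2b, Esrrb, Sall3, Emx1 and Hnf4a did not pass at an adjusted p under 0.05 in limma. Hpn (hepsin), the protease that releases uromodulin from the cell surface, measured 8.98, 9.20, 8.95, 8.82 and 9.04 at 96 weeks, against 8.67, 8.74, 8.64 and 8.30 at 14 weeks. It rose by 0.41 (standard error 0.10, adjusted p = 0.039 in limma). Under the 2 rescalings between arrays Hpn did not pass in limma. It had 0.33 (adjusted p = 0.060) after repeated quantile normalization and 0.35 (adjusted p = 0.058) after cyclic loess. Ppargc1a, a coactivator of genes of mitochondrial metabolism, measured 10.92, 10.75, 10.44, 10.71 and 10.80 at 96 weeks, against 11.21, 11.22, 11.08 and 11.36 at 14 weeks. It fell by 0.49 (standard error 0.094, adjusted p = 0.017 in limma), and its groups did not overlap. Esrrg, an estrogen-related receptor that works with Ppargc1a, fell by 0.37 (standard error 0.094, adjusted p = 0.046 in limma), and its groups did not overlap either. Klf9, a transcription factor induced by glucocorticoids, fell by 0.44 (standard error 0.11, adjusted p = 0.042 in limma), while old replicate 1 (8.59) reached the lowest young kidney (8.59).

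Of these 4 genes Ppargc1a passed in 8 of 9 fits that left out 1 array, the exception being young replicate 4 (−0.45, adjusted p = 0.055 in limma). Hpn passed in 2 (without old replicate 4 and without young replicate 2), Esrrg in 1 (without old replicate 2) and Klf9 in 1 (without old replicate 1). The log2 fold changes in these fits stayed between 0.32 and 0.46 for Hpn, between −0.43 and −0.32 for Esrrg, and between −0.53 and −0.39 for Klf9. Without old replicates 3 and 4 the adjusted p was 0.030 for Ppargc1a and 0.045 for Hpn, and 0.12 for Esrrg and Klf9, in limma. Umod itself had the same mean at both ages.

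Of 9 measured genes of renin, angiotensin and hormone receptors 1 rose and none fell, with a median of 0.07 that turned to −0.0022 after repeated quantile normalization and was 0.22 without old replicates 3 and 4. Agt (angiotensinogen), the precursor of angiotensin II, measured 8.21, 7.80, 7.999, 7.68 and 7.99 at 96 weeks, against 7.37, 7.43, 7.44 and 7.33 at 14 weeks. It rose by 0.54 (standard error 0.096, adjusted p = 0.013 in limma), with every old kidney above every young one, and it passed in all 9 fits that left out 1 array. Ace, the converting enzyme, showed a log2 fold change of 0.27 (adjusted p = 0.21 in limma), and it passed without old replicates 3 and 4 (0.46, adjusted p = 0.025, range over the alternatives 0.025 to 0.37). The angiotensin receptor Agtr1a had one of 0.14 (adjusted p = 0.30 in limma) and the parathyroid hormone receptor Pth1r one of 0.15 (adjusted p = 0.33 in limma).

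**Figure D5:**
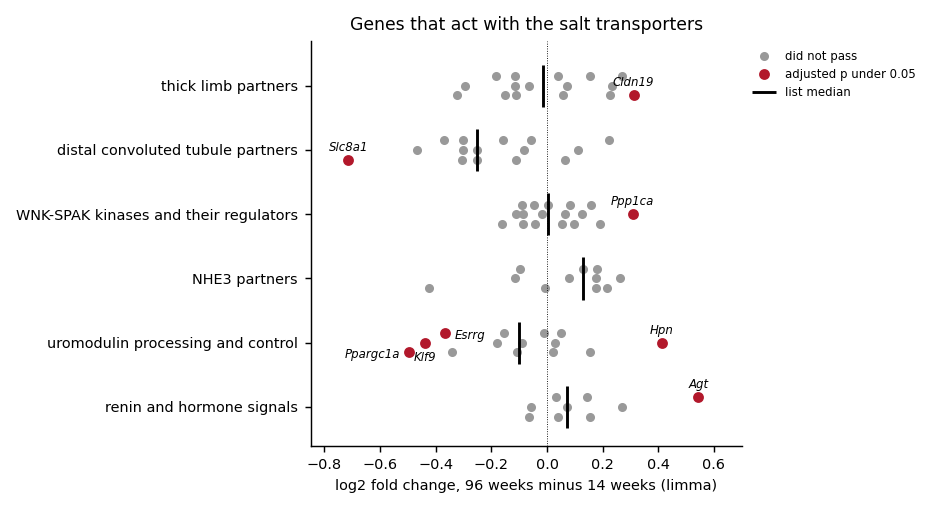
Log2 fold change, 96 weeks minus 14 weeks, of the genes of 6 lists around the salt transporters, with 1 point per gene, red for an adjusted p under 0.05 in limma and a black bar for the list median. The partners in the distal convoluted tubule have the lowest median, −0.25, and the 8 named genes are those that passed.

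The genes whose profile lay nearest to each member were found over the 9 arrays by the root mean square difference of centred log2 values. Wnk4 lay nearest to Ccdc170 (0.066) and to Egf (0.069), the gene of epidermal growth factor, which the thick limb and distal tubule express. Kcnj1 lay nearest to Arhgap32 (0.057) and Abhd18 (0.067), both of which fell at 96 weeks, by 0.32 and 0.35 (adjusted p = 0.046 and 0.034 in limma). These genes were picked for a profile like that of Kcnj1 over the same arrays. A similar change with age follows from that choice and says nothing further about Kcnj1. The nearest to Slc9a3 were Mir205 (0.068) and 9530091C08Rik (0.074), and those to Slc12a3 were Ldc1 (0.065) and Bhmt2 (0.070). For Bsnd these were Dhrs11 (0.048) and Cryab (0.066), for Kcnj10 Atxn7l2 (0.026) and Fam228a (0.028), and for Slc12a1 Plcl1 (0.036) and Stradb (0.038). Stk39 had Tmem108 (0.032) and Mrln (0.036), and Umod had Slco1b2 (0.017) and Nptn (0.018). A small difference is reached most easily by members whose values hardly move, so the distances of different members are not to be compared.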

How the data were processed

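Total RNA of whole kidneys was labelled and hybridised to Affymetrix Mouse Gene ST arrays. The deposited values are log2 expression values for 35557 probe sets, which the authors made with RMA in Affymetrix Power Tools 1.12.0, per the submitters' processing notes. The genome build of the annotation is not given in the sources used here. Of the probe sets 21789 carried 1 gene symbol, 1621 several and 12147 none, and the first were used; for 999 genes with more than 1 the brightest was kept. R 4.3.3 with limma 3.58.1 was used to fit both ages (lmFit, then eBayes) on all 19938 genes without a filter, with Benjamini-Hochberg adjustment. Single values were also tested by exact two-sided permutation over all 126 splits of the arrays, in Python 3.11.15. Replicates are mice, and precision is limited by their number. No arrays held the same values (highest correlation 0.992).

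The members, lists and tests were chosen with earlier results of these data known. Named are the 9 members, list genes that passed or had the smallest p (up to 4 per list), the 2 nearest profiles per member, and marker genes where at most 5 passed. Of 86 listed pathway genes 10 were not analysed here. Alternatives covered the methods' t-test, a trended robust prior, array weights, a filter at the 30th percentile, scaling, means over probe sets or every probe set, leaving out arrays and a block for replicate numbers. The fits were tested on simulated data with the means and spread of the real genes. Of 50 changes of each size, 14 of 0.3, 32 of 0.5 and 49 of 1 on the log2 scale were recovered, with 11 false calls. A gene that did not pass is therefore not shown to be unchanged.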

Additional observations from a re-analysis of the deposited data

Results flagged for a closer look

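Single arrays stood far from the rest of their group in 5 of 84 groups of values (5.95%), where chance gives about 1 in 20. Slc12a3 minus Slc12a1 was −0.39 in replicate 3 at 96 weeks, while the other 4 old kidneys lay between −0.02 and 0.07. Kcnj10 minus Kcnj1 was −2.72 in replicate 4 at 14 weeks, while the other 3 young kidneys lay between −2.97 and −2.96. Kcnj16 was 11.66 in replicate 4 at 96 weeks, below the other old kidneys (11.96 to 12.08). Wt1 was 6.90 in replicate 3 at 96 weeks, below the other old kidneys (7.14 to 7.23). Agtr1a was 8.83 in replicate 3 at 14 weeks, above the other young kidneys (8.51 to 8.55).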

How the results depend on the processing

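The number of genes that passed was 1339, and 367 by the methods' t-test, 368 with the replicate number as a block and 528 to 1135 without 1 array. Higher and lower calls were 860 and 479, against 484 and 505 after repeated quantile normalization and 562 and 379 after cyclic loess. Slc9a3 passed with array weights (−0.40, adjusted p = 0.035), the filter on dim genes (−0.41, adjusted p = 0.049), quantile normalization (−0.48, adjusted p = 0.034) and cyclic loess (−0.46, adjusted p = 0.039) in limma. Kcnj1 passed with the filter (−0.29, adjusted p = 0.049), quantile normalization (−0.35, adjusted p = 0.024) and cyclic loess (−0.32, adjusted p = 0.034). The filter tests fewer genes; for the others the cause was not tested. Slc12a3 passed in limma without old replicates 3 and 4 (0.28, adjusted p = 0.042), the 2 old arrays in which it was below the young range. Wnk4 turned to 0.12 without these 2 arrays and ranged from −0.14 to 0.057 without 1 array. Umod turned to −0.017 with quantile normalization and −0.012 with the replicate block, and ranged from −0.012 to 0.022 without 1 array. Slc9a3 minus Slc12a1 passed after cyclic loess (−0.33, exact permutation, adjusted p = 0.032) and ranged from −0.36 to −0.24 without 1 array, and Kcnj10 minus Kcnj1 from 0.081 to 0.17. The lists held 8 calls, against 1 by the methods' t-test, which was none of the 8, and 1 to 6 without 1 array. Of the 8, Cldn19 and Hpn did not pass after quantile normalization or cyclic loess, and the other 6 did. With array weights and with the mean over probe sets Slc8a1 was the only one of the 8 that did not pass. Old and young arrays of the same replicate number did not deviate together over all genes (correlations 0.076, 0.021, −0.037 and 0.012). The labels do not say what the number stands for, and whether part of the genes share a batch was not tested. With the block Slc9a3 had −0.41 (adjusted p = 0.052) and Kcnj1 −0.31 (adjusted p = 0.066) in limma. Signal over background was not given; all 9 members lay above the 30th percentile of brightness.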
